A study of Mus musculus with 7 samples.

Results

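The 8 entries described here are the mature arms of 5 hairpins that reach Dicer without being cut by Drosha: mmu-miR-320-3p, mmu-miR-320-5p and mmu-miR-484 from capped hairpins, and mmu-miR-1224-5p, mmu-miR-1224-3p, mmu-miR-877-5p, mmu-miR-877-3p and mmu-miR-702-3p from mirtrons (the species prefix is left out from here on). They were picked by name from 1915 mature miRNAs counted in mouse colorectum, and all 8 were found. The set was chosen by biogenesis with the CRC against healthy counts of these same mice known, so the values of CRC against healthy mice are given as a description; where the fit over all miRNAs called a member, nothing is read from that call. All mice were wild-type C57BL/6 females labelled as aged 7 weeks, and colorectum was the labelled tissue. Whether 7 weeks was the age at the start of treatment or at collection was not established here. The 3 mice with colorectal cancer (CRC), M4, M5 and M6, were injected with 10 mg per kg of the carcinogen azoxymethane (AOM). After 5 days they drank 2.5% dextran sodium sulfate (DSS), which wounds the colon lining, for 7 days and then plain water for 14 days, a course given 3 times per the labels, and they are labelled stage T1, day 17. The event that day 17 counts from was not established here. The 3 healthy mice, M1, M2 and M3, were injected with 0.9% saline. The labels used here list no group with AOM or DSS alone, so carcinogen, injury and tumour cannot be told apart, and a tumour share per sample is not labelled.

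Most microRNAs (miRNAs) are cut from a long transcript by the nuclear enzyme Drosha with its partner Dgcr8, exported, and cut again by Dicer into a duplex, of which an Argonaute protein keeps the guide strand and discards the passenger. Capped hairpins bypass Drosha because transcription begins and ends at the hairpin itself; the cap stays on the 5′ end, and for pre-miR-320 the 3p arm is the one loaded. Mirtrons bypass it because the splicing machinery releases a whole short intron, which is debranched and folds into the hairpin. The mature arms of a mirtron therefore begin and end at splice sites, and the 3p arm carries the intron's pyrimidine tract.

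The mature sequences are shown because the 2 arms of a hairpin had different values in these mice. They are the entries of the deposited table, 5′ to 3′ in DNA letters, and the capitals mark the seed, bases 2 to 8, which pairs with target messenger RNAs.
miR-320-3p: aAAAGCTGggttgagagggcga
miR-320-5p: gCCTTCTCttcccggttcttcc
miR-484: tCAGGCTCagtcccctcccgat
miR-1224-5p: gTGAGGACtggggaggtggag
miR-1224-3p: cCCCACCTcttctctcctcag
miR-877-5p: gTAGAGGAgatggcgcaggg
miR-877-3p: tGTCCTCTtctccctcctccca
miR-702-3p: tGCCCACCctttaccccgctcc
No seed is shared between these 8, and 0 other entries of the table hold any of these seeds. Each sequence occurs whole in 1 annotated GENCODE M21 transcript, its own hairpin. Pyrimidines (C or T) make up 86.4% of miR-320-5p, 85.7% of miR-1224-3p, 90.9% of miR-877-3p and 81.8% of miR-702-3p, against a median of 50% over all 1915 entries. The opposite arms have 22.7% in miR-320-3p, 19.0% in miR-1224-5p and 20% in miR-877-5p, and miR-484 has 68.2%. The GC content of the 8 runs from 54.5% to 68.2%, above the median of 50% over the miRNAs tested.

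The hairpins of the mirtrons show the splice sites they share with their introns. The sequences are RefSeq's hairpins on GRCm38.p6, and the capitals mark the first and last 2 bases of the annotated intron where they lie inside the hairpin.
mir-1224: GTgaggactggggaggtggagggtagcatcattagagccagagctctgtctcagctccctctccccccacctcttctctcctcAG
mir-877: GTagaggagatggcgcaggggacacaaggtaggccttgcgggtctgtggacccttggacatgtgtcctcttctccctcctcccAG
mir-702: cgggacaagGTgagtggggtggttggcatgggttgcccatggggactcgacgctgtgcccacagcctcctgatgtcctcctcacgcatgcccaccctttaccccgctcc
The 85 bases of mir-1224 (chr16:20604452-20604536, plus strand) are exactly 1 intron of Vwa5b2, and the 85 bases of mir-877 (chr17:35960730-35960814, minus strand) are exactly 1 intron of Abcf1, which encodes a translation factor. The hairpin of mir-702 (chr5:136991433-136991541, plus strand) starts 9 bases before and ends 2 bases before its 102-base intron of Plod3, a gene for a collagen-modifying enzyme. The 5p arms of all 3 start at the first base of the intron. The last base of miR-1224-3p is the last base of the intron, that of miR-877-3p lies 1 base before it and that of miR-702-3p 2 bases before it.

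The capped hairpins overlap no GENCODE gene of their own strand apart from their own entries. mir-320 (chr14:70443510-70443591, plus strand) lies 63 bases from the annotated start of Polr3d, a subunit gene of RNA polymerase III that is read in the opposite direction. mir-484 (chr16:14159626-14159692, plus strand) lies 3583 bases upstream of the GENCODE start of Nde1 and its end overlaps an exon of Marf1 on the other strand. The mature miR-484 sequence itself occurs in no annotated transcript in antisense.

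Total miRNA counts ran from 3206127 to 6601899 in the CRC mice and from 8222508 to 15280434 in the healthy mice. Levels below are counts per 1e+06 reads (CPM) on library sizes scaled by TMM, a factor that corrects for a few miRNAs taking many reads; scaling by totals alone shifted all log2 fold changes upward by a median of 0.71. The 6 profiles lay in neighbouring pairs: across 279 miRNAs the correlation of log2 CPM was 0.984 between M5 and M6, 0.992 between M1 and M2, and 0.966 between the CRC profile M4 and the healthy profile M3. All other pairs were at most 0.909. No batch is labelled. The labelled tissue carried smooth muscle, epithelial, blood, fibroblast and nerve miRNAs in every mouse, with no marker at 0. The summed level of the 4 smooth muscle markers was 44427 to 217744 CPM in CRC mice and 189893 to 822321 CPM in healthy mice, and it was lowest in M6 and M5. In whole tissue, fewer cells of a type and less RNA per cell cannot be told apart. The label M1 covers 2 libraries and the table has 1 column for it, which was used as 1 healthy mouse.

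The passenger arms miR-320-5p and miR-1224-3p had far higher levels in the CRC mice M5 and M6 than in any other mouse. On the TMM scale their guide arms miR-320-3p and miR-1224-5p were lowest in these 2 mice. Scaled by totals alone this held for miR-1224-5p, while miR-320-3p had 541 CPM in M6, above 468 CPM in M4. Guide and passenger here name the arms with more and with fewer reads over the 3 healthy mice together. Argonaute loading was not measured. The 8 sequences are 20 to 22 bases long. How efficiently each is captured in a library was not measured, so the order below is one of read counts. The most abundant member was miR-484 at a mean of 2445 CPM over the 6 mice (rank 52 of 1915 entries), followed by miR-320-3p at 588 CPM (rank 110). In CRC mice the order of mean levels after these was miR-320-5p, miR-1224-3p, miR-877-5p, miR-877-3p, miR-1224-5p and miR-702-3p, and in healthy mice it was miR-877-5p, miR-877-3p, miR-1224-5p, miR-320-5p, miR-1224-3p and miR-702-3p. Neighbours whose means differed by less than the larger of their SDs were, in CRC mice, miR-320-5p and miR-1224-3p, miR-1224-3p and miR-877-5p, and miR-1224-5p and miR-702-3p. In healthy mice they were miR-877-5p and miR-877-3p, and miR-1224-5p and miR-320-5p.

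**Figure D1:**
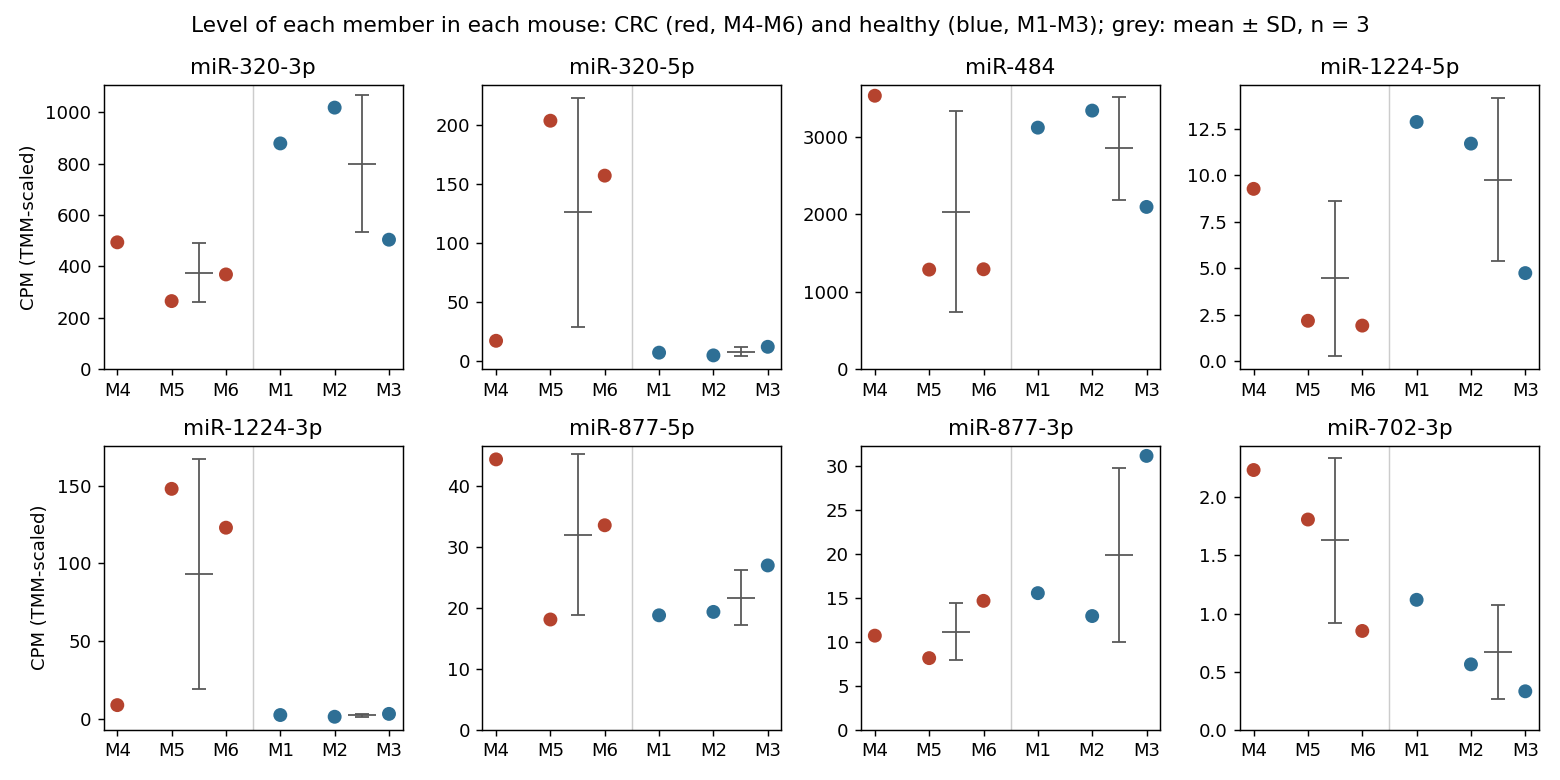
Level of each of the 8 members (CPM, TMM-scaled, linear axes) in the CRC mice M4 to M6 (red) and the healthy mice M1 to M3 (blue), with the mean and SD of each group (n = 3) in grey. miR-320-5p and miR-1224-3p stand high in M5 and M6, with M4 at 17.1 and 8.94 CPM just above the healthy mice.

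miR-320-3p, the guide arm, represses beta-catenin in human colon cancer cells as miR-320a. It had 493 (M4), 264 (M5) and 368 (M6) CPM, against 879 (M1), 1018 (M2) and 504 (M3) CPM. Every CRC mouse lay below every healthy mouse, against 12.4% of all tested miRNAs, but M4 and M3 differed by only -0.03 on the log2 scale. The group means were 375 ± 115 CPM in CRC and 800 ± 266 CPM in healthy mice (SD, n = 3 each), with a log2 fold change of -1.09 (SE 0.44). Scaled by totals alone it was -0.33, and the CRC mice (410 to 541 CPM) still lay below the healthy ones (556 to 633 CPM), as did those of 3.87% of all tested miRNAs on that scale.

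miR-320-5p, the passenger arm of the same hairpin, ran the opposite way. Its raw counts were 107 in M4, 1125 in M5 and 739 in M6, against 63 in M1, 42 in M2 and 109 in M3. M5 and M6 thus had more reads of this arm than any healthy mouse although they were the shallowest libraries. In CPM it had 17.1 in M4, 204 in M5 and 157 in M6, against 7.04 in M1, 4.72 in M2 and 12 in M3. Every CRC mouse lay above every healthy mouse, as did those of 14.1% of all tested miRNAs. The log2 fold change was 3.99 (SE 0.86). Between the neighbouring profiles, M4 exceeded M3 by 0.49 log2 units.

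miR-484, which restrains the mitochondrial fission factor Fis1 in heart muscle cells, had no shared direction in the CRC mice. It had 3534 (M4), 1285 (M5) and 1289 (M6) CPM, against 3122 (M1), 3342 (M2) and 2096 (M3) CPM. M4 was the highest of all 6 mice, and M5 and M6 the lowest. The log2 fold change was -0.49 (SE 0.48). Scaled by totals alone it turned to 0.15, so no direction is given.

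Of the mirtron mir-1224, the guide arm miR-1224-5p was low in all mice, with 9.26 (M4), 2.17 (M5) and 1.91 (M6) CPM, against 12.9 (M1), 11.7 (M2) and 4.73 (M3) CPM. The groups overlapped, since M4 lay above M3. The log2 fold change was -1.12 (SE 0.70). Its counts were 9 to 58 in CRC and 43 to 115 in healthy mice, so single mice carry wide counting error.

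The other arm, miR-1224-3p, gave the highest fold change among the members. It had 56 reads in M4, 818 in M5 and 579 in M6, against 23 in M1, 13 in M2 and 30 in M3. On the CPM scale M4 had 8.94, M5 148.0 and M6 123, against 2.57 in M1, 1.46 in M2 and 3.30 in M3. Every CRC mouse was above every healthy mouse, against 14.1% of all tested miRNAs, and M5 and M6 stood far above M4. The log2 fold change was 5.24 (SE 0.97), and M4 exceeded M3 by 1.31 log2 units.

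The mirtron mir-877 did not follow this pattern. Its guide arm miR-877-5p had 44.4 (M4), 18.1 (M5) and 33.6 (M6) CPM, against 18.8 (M1), 19.3 (M2) and 27.0 (M3) CPM, a log2 fold change of 0.56 (SE 0.47). M5 was the lowest of the 6 mice, so the groups overlapped. The pyrimidine-rich miR-877-3p had 10.7 (M4), 8.14 (M5) and 14.7 (M6) CPM, against 15.5 (M1), 12.9 (M2) and 31.2 (M3) CPM, a log2 fold change of -0.83 (SE 0.52). Here too the groups overlapped, and M3 stood above all others.

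miR-702-3p was close to the detection limit, with 14 reads in M4, 10 in M5 and 4 in M6, against 10 in M1, 5 in M2 and 3 in M3. It did not pass the filter on low counts, and in a fit without the filter its log2 fold change was 1.25 (SE 0.87). Its level was 0.850 to 2.24 CPM in CRC and 0.330 to 1.12 CPM in healthy mice, and the groups overlapped. Scaled by totals alone they did not, with 1.25 to 2.80 CPM in CRC and 0.327 to 0.805 CPM in healthy mice. On that scale 19% of all tested miRNAs were above each healthy mouse in all CRC mice, so nothing is read from it. Its partner miR-702-5p, not one of the 8 members, had 16, 17 and 10 reads in M4, M5 and M6, against 23, 12 and 14 in M1, M2 and M3. Its log2 fold change was 0.50 (SE 0.53), with overlapping groups on the TMM scale. Scaled by totals alone it had 2.42 to 4.77 CPM in CRC and 0.785 to 1.85 CPM in healthy mice, against the same 19% of all tested without overlap in this direction.

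**Figure D2:**
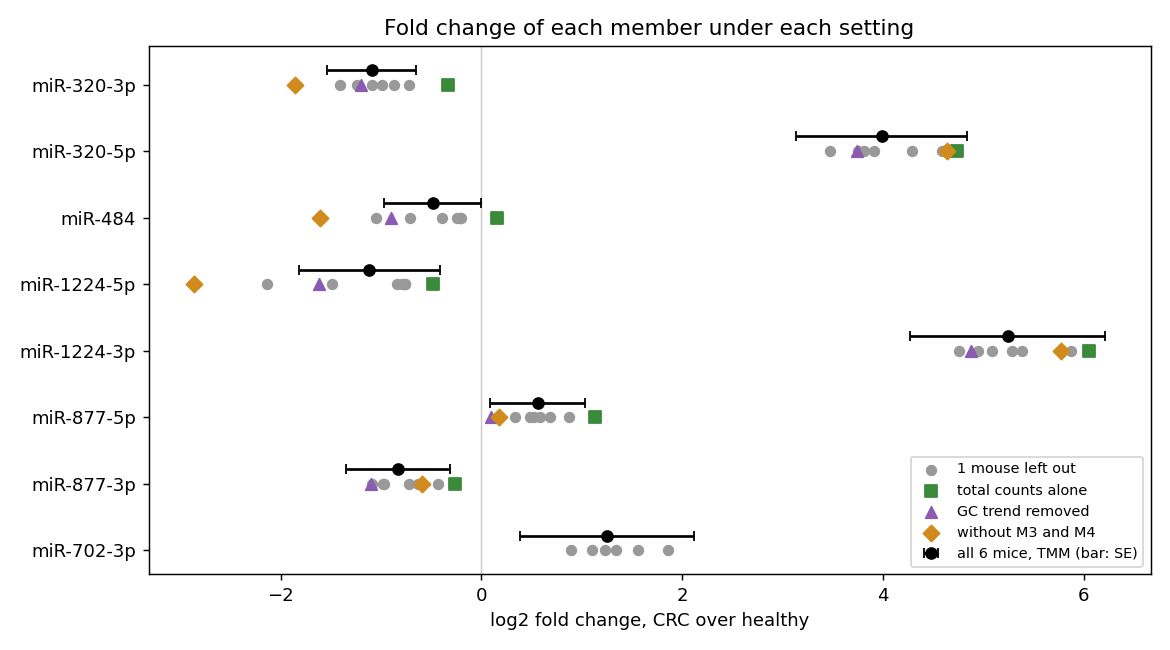
Log2 fold change of CRC over healthy for each member, with all 6 mice on the TMM scale (black, bar = SE) and under other settings (coloured and grey marks). The values of miR-320-5p and miR-1224-3p stay above 3 in every setting drawn, those of the other members lie between -2.86 and 1.86, and that of miR-484 crosses 0 with total counts alone. The black mark of miR-702-3p is from the fit without the filter.

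The share of each hairpin's reads that come from either arm does not depend on how libraries are scaled. For mir-1224 the 3p arm took 49.1% of the reads of both arms in M4 (95% exact binomial interval 39.6 to 58.7), 98.6% in M5 (97.5 to 99.3) and 98.5% in M6 (97.1 to 99.3). In healthy mice it took 16.7% in M1 (10.9 to 24.0), 11.1% in M2 (6.05 to 18.3) and 41.1% in M3 (29.7 to 53.2). These intervals cover counting error only. The 5p arm was thus the more abundant one in all healthy mice and the 3p arm in M5 and M6, with M4 near equal shares. The reads of both arms together were 114 in M4, 830 in M5 and 588 in M6, against 138 in M1, 117 in M2 and 73 in M3.

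For mir-320 the 5p arm took 3.35% of the reads in M4 (2.75 to 4.03), 43.5% in M5 (41.6 to 45.4) and 29.9% in M6 (28.1 to 31.7), against 0.795% in M1 (0.611 to 1.02), 0.462% in M2 (0.333 to 0.623) and 2.33% in M3 (1.91 to 2.80). The intervals of M4 and M3 overlapped slightly, while M5 and M6 lay far above every healthy mouse. The guide arm miR-320-3p kept the majority in all 6 mice. In mir-877 the 3p arm had 19.4% in M4, 31.0% in M5 and 30.4% in M6, against 45.3% in M1, 40.1% in M2 and 53.6% in M3. Its share was thus lower in each CRC mouse than in each healthy mouse. How many other hairpins had arm shares without overlap was not counted, so nothing is read from this. The intervals of M5 (23.6 to 39.2) and M6 (24.5 to 36.8) overlapped that of M2 (34.4 to 46.0). For mir-702 the 3p arm had 28.6% to 46.7% in CRC and 17.6% to 30.3% in healthy mice, from at most 33 reads per mouse.

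**Figure D3:**
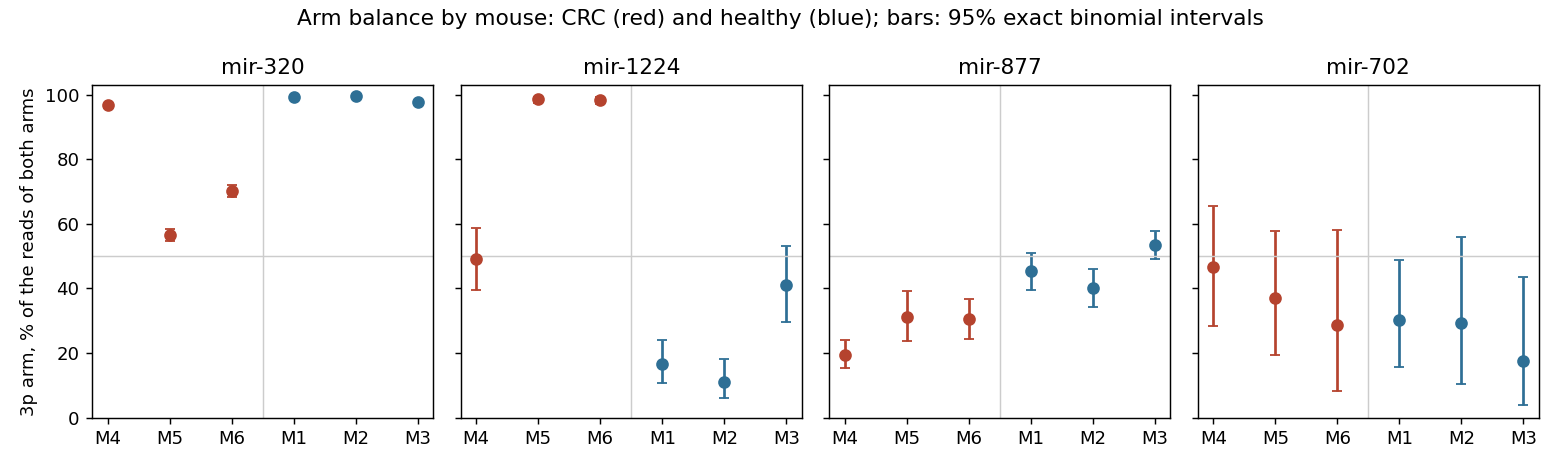
Share of the 3p arm in the reads of both arms (percent) for the 4 hairpins with both arms in the table, in CRC mice (red) and healthy mice (blue), with 95% exact binomial intervals. The 3p share of mir-1224 is 98.6% in M5 and 98.5% in M6, while that of mir-320 is 56.5% in M5, against at least 97.7% in healthy mice.

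On the log2 scale of 5p over 3p counts (0.5 added to each), mir-1224 had -3.97 ± 3.48 in CRC and 1.92 ± 1.26 in healthy mice, and mir-320 had -2.15 ± 2.37 in CRC and -6.69 ± 1.20 in healthy mice (SD, n = 3 each). The difference of mir-877 was 1.24, from 1.46 ± 0.51 in CRC and 0.21 ± 0.40 in healthy mice (SD, n = 3 each). Among the 236 hairpins whose arms each averaged 10 counts or more, the difference between the groups was of the largest size for mir-1224 (-5.89) and of the fourth largest size for mir-320 (4.54), against a median size of 0.62. That of mir-877 ranked 53. In 13 of the 236 hairpins (5.51%), mir-1224 among them, the more abundant arm in both M5 and M6 was not the more abundant one in any healthy mouse. These ranks describe the 6 libraries and use the same counts as the choice of members.

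**Figure D4:**
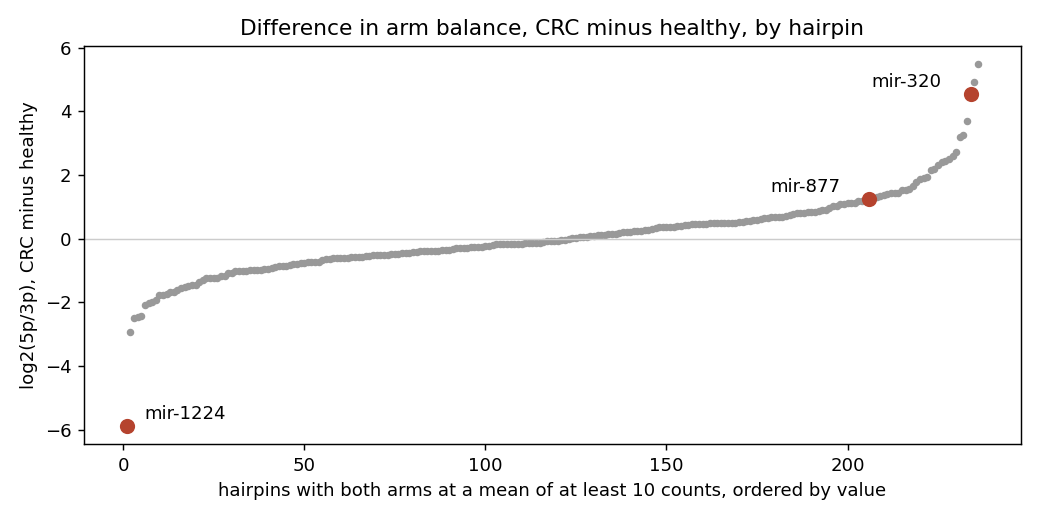
Difference in log2(5p/3p) between CRC and healthy mice for 236 hairpins in ascending order, with those of the members in red. mir-1224 (-5.89) is at the low end, mir-320 (4.54) near the high end and mir-877 (1.24) within the bulk.

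Of the 8 members, 7 passed the filter on low counts and were part of the fit over 878 miRNAs. At an adjusted p of 0.05 (edgeR quasi-likelihood fit, Benjamini-Hochberg), 2 of the 7 passed, both higher (miR-320-5p and miR-1224-3p), against 2.28% of all tested miRNAs, all of these higher. Because the set was proposed with this contrast known, nothing is read from that count. Their median log2 fold change was -0.49, the value of miR-484, against -0.03 over all tested miRNAs, and scaled by totals alone it turned to 0.15, against 0.62. Each CRC mouse was above each healthy mouse for 2 of the 7, against 14.1% of all tested, and below for 1 of the 7, miR-320-3p, against 12.4%, which makes 3 of 7 without overlap, against 26.5%. M5 and M6 alone were both above each healthy mouse for the same 2 arms, against 25.1% of all tested. Scaled by totals alone, again 2 of the 7 were above each healthy mouse in all CRC mice, against 19% of all tested. The calls of both arms were lost when M1, M2, M5 or M6 was left out, where 0 to 4 of all miRNAs passed. Without M3 only miR-1224-3p passed, 1 of 8 members, against 5.9% of all tested in that fit. Without M4 both arms passed, and miR-1224-5p passed as lower with a log2 fold change of -2.14, which made 3 of 8 members against 19.9% of all tested. Without both M3 and M4 it was 5 of 7 members, against 53.2% of all tested.

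M5 and M6, which set the high values of miR-320-5p and miR-1224-3p, were also the shallowest libraries, had the highest TMM factors (1.55 and 1.47, against 0.949 in M4 and 0.582 to 1.10 in healthy mice) and carried the lowest share of smooth muscle miRNA reads (7.04% and 6.52%, against 20.7% in M4 and 21.0% to 47.9% in healthy mice). The summed level of the 3 nerve markers was likewise lowest in M5 (148 CPM) and M6 (151 CPM), with 296 CPM in M4 and 396 to 800 CPM in healthy mice. On this TMM scale it was the only one of the 5 marker lists whose groups did not overlap. As a share of reads, the smooth muscle and nerve lists were lower in every CRC mouse than in any healthy mouse. The epithelial list was higher, with 12.8% to 16.1% in CRC and 10.8% to 12.5% in healthy mice. The part of depth, scaling and tissue makeup in these values was not tested. With each profile's trend on GC content removed, miR-1224-3p had a log2 fold change of 4.88 and miR-320-5p of 3.74, and of these only miR-1224-3p passed, against 1.71% of all tested.

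Among the members, miR-320-5p and miR-1224-3p resembled each other most. Over the 6 profiles the Pearson correlation of log2 CPM was 0.996 between miR-320-5p and miR-1224-3p, and 0.975 between miR-484 and miR-1224-5p, while the 2 arms of mir-320 had -0.92 and the 2 arms of mir-1224 had -0.90. The 6 points share libraries and fall into the 3 neighbouring pairs, so these are descriptions. Among 276 other miRNAs with a mean of at least 50 CPM, those most like miR-320-5p were miR-5099 (0.998), miR-6238 (0.992) and miR-7213-3p (0.992). Those most like miR-1224-3p were miR-2137 (0.997), miR-6538 (0.995) and again miR-7213-3p (0.995). Their log2 fold changes were 2.36 for miR-5099, 4.57 for miR-6238, 2.89 for miR-2137, 3.91 for miR-6538 and 4.87 for miR-7213-3p. The GC content was 85.7% in miR-2137 and 94.7% in miR-6538, 36.4% in miR-6238 and 50% in miR-5099 and miR-7213-3p. Whether the reads of these entries come from true miRNAs was not tested. miR-7213-3p had 30.3 (M4), 625 (M5) and 603 (M6) CPM, against 17.9 (M1), 7.98 (M2) and 16.95 (M3) CPM, with M5 highest, then M6 and M4, as in both arms.

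The other members of at least 10 CPM had other closest miRNAs, and miR-1224-5p and miR-702-3p, below that level, were not compared. miR-320-3p was most like miR-139-5p (0.989), miR-467a-5p (0.988) and miR-7b-5p (0.986), all lower in M5 and M6 than in M1 and M2. miR-484 was most like miR-98-5p (0.997), miR-23b-3p (0.996) and miR-674-5p (0.990). miR-877-5p had its highest likeness with miR-5100 (0.941), followed by miR-200c-3p (0.911) and miR-671-5p (0.892). For miR-877-3p the closest were miR-3068-5p (0.937), miR-335-5p (0.919) and miR-375-3p (0.909).

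Other miRNAs made without Drosha or Dgcr8 were looked at as a list chosen by name. The list held 13 arms (the mirtrons mir-1981 and mir-3102, the snoRNA-derived mir-1839, the tRNA-derived miR-1983 and the mir-344 family). Of its 11 tested entries 0 passed in either direction, which at 2.28% over all tested miRNAs says little. The median log2 fold change was -0.47, against -0.03 over all tested, and it turned to 0.20 scaled by totals alone, against 0.62. The most abundant was miR-1839-5p with 167 (M4), 129 (M5) and 155 (M6) CPM, against 262 (M1), 268 (M2) and 150 (M3) CPM, a log2 fold change of -0.59 (SE 0.40). miR-1839-3p had -0.99 (SE 0.58), miR-3102-3p -0.89 (SE 0.84), miR-1981-5p -0.25 (SE 0.47) and miR-1983 1.24 (SE 0.61). miR-1983 had 68.0, 67.1 and 45.5 CPM in M4, M5 and M6, against 11.2, 13.8 and 51.2 CPM in M1, M2 and M3, and M3 again lay among the CRC mice. For the Drosha-cut but Dicer-independent miR-451a the log2 fold change was 1.45 (SE 0.53), with overlapping groups.

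Mirtron-like positions were also searched for in the annotation. Of 1158 hairpins found in GENCODE M21, 21 had both ends within 5 bases of the ends of 1 intron on their strand, mir-1224 and mir-877 among them. The hairpin of mir-702, which starts 9 bases before its intron, did not meet this rule. The hairpins other than the members that met it gave 40 entries, of which 19 were tested and 0 passed in either direction, against 2.28% of all tested. Their median log2 fold change was 0.45, against -0.03 over all tested, with 12 of 19 positive, and in 6 of 19 all CRC mice lay above all healthy mice, against 14.1% of all tested. In 1 of 19, miR-1982-3p, named after its values were seen, they lay below, against 12.4%. These 6 entries and miR-1982-3p had few reads, with means of 1.38 to 4.84 CPM and 0 to 59 reads in a mouse. Single mice thus carry wide counting error in them. The filter on low counts asks for enough reads in 3 libraries, so an entry can pass it through the CRC mice alone. Of the 6, miR-6981-5p, miR-6970-5p and miR-7070-5p passed in that way. Nothing is therefore read from the 6 of 19, the 12 of 19 or the median. The most abundant entries of the whole list were miR-3102-3p and miR-1981-5p, given above, and miR-3547-5p. The last had 2.55 (M4), 50.1 (M5) and 39.5 (M6) CPM, against 5.59 (M1), 2.14 (M2) and 3.52 (M3) CPM (log2 fold change 3.03, SE 0.92), so M5 and M6 were high and M4 was not. The other arms of mir-3102 among the 5 most abundant had -0.47 (SE 0.46) for miR-3102-3p.2-3p and 0.12 (SE 0.74) for miR-3102-5p.2-5p.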

How the data were processed

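The authors deposited whole-number read counts per mature miRNA, not normalized, with 6 columns that map to the labelled mice; reads were aligned with BWA to mm10 (GRCm38), per the submitters' processing notes. Library preparation was the Ion Total RNA-Seq kit on an Ion Proton, per the labels' protocols. The sources used here do not say how reads with several matches were counted. Mice are separate animals.

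Counts of all 1915 entries were fitted in R 4.3.3 with edgeR 4.0.16 (filterByExpr, TMM, robust glmQLFit, glmQLFTest, two-sided, Benjamini-Hochberg), which kept 878. The SE is the size of the log2 fold change over the square root of F. The common coefficient of biological variation was 0.511. DESeq2 1.42.0 and limma-voom (limma 3.58.1) were alternatives, with other scalings and filters, a loess GC correction (span 0.75) and left-out mice. Only the fits were tested on simulated counts. The simulated mice were independent and varied less than these, without the neighbouring pairs seen here. Exact intervals used SciPy 1.17.1. Hairpin positions are GENCODE M21's, and hairpin sequences are RefSeq's on GRCm38.p6, with no entry used for mir-320.

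The members and lists were chosen with earlier results of these data known. All 8 members were named, with up to 5 abundant entries of each list and, for members of at least 10 CPM, the 3 most alike miRNAs of at least 50 CPM.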

Additional observations from a re-analysis of the deposited data

How the results depend on the processing

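The number of miRNAs past the threshold, 20 of 878 tested, depended on the setting. It was 43 with total counts alone, 64 without a filter, 0 with a mean of at least 50 CPM, 111 with DESeq2, 0 with limma-voom, 80 at an adjusted p of 0.10 and 576 of 1082 tested without both M3 and M4; leaving out 1 mouse gave 0 (without M1, M5 or M6) to 237 of 1188 tested (without M4), with 4 without M2 and 63 without M3. At an unadjusted p under 0.05 edgeR held 204. RLE factors gave 28 and the GC correction 15. Over 100 alternative values of the 8 members, 92 moved by less than the spread between mice, 8 moved by more and 1 changed sign (miR-484, 0.15 with total counts alone). miR-1224-3p ranged from 4.49 to 6.05 and passed in 8 of 13 alternatives, and miR-320-5p ranged from 3.44 to 4.74 and passed in 6 of 14. Without both M3 and M4, miR-320-3p had -1.86, miR-484 -1.61 and miR-1224-5p -2.86, and 5 of 7 members passed, against 53.2% of all tested there. The median of the intron-end list (0.45) was 1.18 with total counts alone, where the median over all tested was 0.62, and 0.065 (without M6) to 0.98 (without M4) with 1 mouse left out, where it was 0.80 without M3. The members' share of all reads differed by 0.0457 percentage points between CRC and healthy mice, by -0.0760 without the 5 most abundant miRNAs in the total and by 0.0140 (without M4) to 0.0634 (without M6) with 1 mouse left out; the cause was not tested. The arm balance of mir-1224 lay between -7.90 and -4.86, that of mir-320 between 3.65 and 5.89 and that of mir-877 between 0.95 and 1.43 with 1 mouse left out. No paired analysis was possible because the labels give no number that pairs a CRC with a healthy mouse. Depth limits miR-702-3p and miR-1224-5p, with at most 14 and 115 reads in a mouse.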

Other observations

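The 8 members together took 0.391% of all miRNA reads in M4, 0.299% in M5 and 0.292% in M6, against 0.292% in M1, 0.257% in M2 and 0.296% in M3. The arms with fewer reads over the 3 healthy mice together (miR-320-5p, miR-1224-3p, miR-877-3p and miR-702-3p) took 0.00370% in M4, 0.0560% in M5 and 0.0434% in M6, against 0.00189% in M1, 0.00115% in M2 and 0.00517% in M3, so M4 lay below M3 in this sum. Most of the total was miR-484, with 0.335% in M4, 0.199% in M5 and 0.189% in M6, against 0.225% in M1, 0.195% in M2 and 0.232% in M3, while the part from the 4 arms was highest in M5 and M6.

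These 4 arms all hold at least 80% pyrimidines. A look at the other tested entries of at least 80% pyrimidines, chosen after the values were seen, found 14. Of these, 7 were above every healthy mouse in both M5 and M6, against 25.1% of all 878 tested. With all CRC mice 4 were above every healthy mouse, against 14.1%, and 1 below, against 12.4%. In edgeR's test 0 of the 14 passed, and their median log2 fold change was 0.71, against -0.03 over all tested. Because the list was chosen with the members' values known, nothing is read from these counts. Among the members, miR-320-5p and miR-1224-3p were above every healthy mouse in both M5 and M6, and miR-877-3p and miR-702-3p were not.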
